A study of Mus musculus with 5 samples.

Results

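The intercalated disc and gap junction genes examined here are Gja1, Gja5, Gjc1, Cdh2, Dsp, Pkp2, Jup, Dsg2, Dsc2 and Ctnna3. They are 10 of the 25017 gene symbols in a table of CUT&RUN peaks. In this assay an antibody guides a nuclease to a chromatin mark, here methylated lysine 4 of histone H3 (H3K4), and the DNA it cuts loose is sequenced. Every peak that the table assigns to 1 of the 10 symbols was taken, 100 of 85275 peaks. A gene's main peak is the one with the highest mean over the 4 H3K4 libraries, and its other peaks were kept where at least 2 of these libraries reached 1 CPM (the counts of a library scaled to a common total of its reads in peaks). That left 72 of the 58072 peaks that passed the same filter over the whole table, of which 10 were main peaks and 62 were other peaks. The filter kept a Cdh2 peak with 0.940 and 1.03 CPM in the knockdown and 2.08 and 0.895 CPM in the control libraries. It left out a Jup peak with 0.752 and 0.644 CPM in the knockdown and 1.82 and 0.99993 CPM in the control libraries.

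The cells were cardiomyocytes isolated from mouse hearts on postnatal day 1. In the knockdown group (2 libraries) they were treated for 72 h with a short hairpin RNA against Kdm5b, labelled Kdm5b-ShRNA-IL, and in the control group (2 libraries) with Control-ShRNA-IL for the same time. Kdm5b encodes a demethylase of H3K4. A negative control (1 library) came from cells given Control-ShRNA-IL. The sources used here do not give strain, sex, animal numbers, the methylation state that the antibody recognised or what antibody the negative control had. A postnatal number stands in the cell type label and runs from P1 to P5 over the 5 samples, against day 1 in the isolation protocol. If that number were an age, age and knockdown could not be told apart. The H3K4 libraries are called 3 and 4 after their columns, whose numbers differ from those in the sample titles, so a column stands for its group. No label ties the 2 libraries of a group to separate cultures, so the p-values do not measure how cultures or animals vary. The spread behind the standard errors, intervals and p-values of the main test came from the trend over all tested peaks. It was not measured at the single peak, and it may be technical.

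The intercalated disc joins heart muscle cells end to end and carries both force and current. Gap junctions, built from connexins, pass the current from cell to cell. Adherens junctions, with N-cadherin (Cdh2) and the catenins, anchor the actin of the sarcomeres, and desmosomes anchor the intermediate filaments through desmosomal cadherins (Dsg2 and Dsc2) and plaque proteins (Jup, Pkp2 and Dsp). Inherited mutations of the human desmosomal genes are a known cause of arrhythmogenic cardiomyopathy. Methylation of H3K4 is known from the start regions of genes, and there it often coincides with DNA rich in CpG dinucleotides.

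Promoter sequences were at hand for 5 of the 10 genes, in RefSeq's mouse build GRCm38.p6, and are shown because the main peaks differ in width and in signal over the negative control. The peaks are in GRCm39, so the positions below cannot be laid over them. Each sequence is the 250 bases before the annotated start, read 5′ to 3′ along the gene's strand, with CpG dinucleotides in capitals. The windows are chr10:56377050-56377299 on the plus strand for Gja1, chr3:97032152-97032401 (plus) for Gja5, chr13:38151044-38151293 (plus) for Dsp, chr11:100397791-100398040 (minus) for Jup and chr10:63429848-63430097 (plus) for the first of 3 annotated starts of Ctnna3.
Gja1: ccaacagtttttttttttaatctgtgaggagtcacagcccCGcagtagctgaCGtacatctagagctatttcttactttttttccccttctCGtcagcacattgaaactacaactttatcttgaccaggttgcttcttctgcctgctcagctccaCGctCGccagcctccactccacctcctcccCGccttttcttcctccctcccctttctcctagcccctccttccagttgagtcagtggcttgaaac
Gja5: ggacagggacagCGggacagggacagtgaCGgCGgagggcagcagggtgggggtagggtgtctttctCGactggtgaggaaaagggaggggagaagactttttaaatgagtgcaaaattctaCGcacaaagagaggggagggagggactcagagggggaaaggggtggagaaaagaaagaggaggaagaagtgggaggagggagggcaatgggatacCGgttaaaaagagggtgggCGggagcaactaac
Dsp: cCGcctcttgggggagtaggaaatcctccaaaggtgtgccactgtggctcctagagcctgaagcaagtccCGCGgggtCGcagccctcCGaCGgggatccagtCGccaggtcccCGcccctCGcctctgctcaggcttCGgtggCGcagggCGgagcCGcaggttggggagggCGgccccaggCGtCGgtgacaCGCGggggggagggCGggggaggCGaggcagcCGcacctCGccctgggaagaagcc
Jup: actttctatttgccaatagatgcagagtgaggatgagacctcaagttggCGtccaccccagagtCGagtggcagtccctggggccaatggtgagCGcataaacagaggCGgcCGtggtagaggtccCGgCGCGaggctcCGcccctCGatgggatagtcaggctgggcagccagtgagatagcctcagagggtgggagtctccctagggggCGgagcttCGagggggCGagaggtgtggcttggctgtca
Ctnna3: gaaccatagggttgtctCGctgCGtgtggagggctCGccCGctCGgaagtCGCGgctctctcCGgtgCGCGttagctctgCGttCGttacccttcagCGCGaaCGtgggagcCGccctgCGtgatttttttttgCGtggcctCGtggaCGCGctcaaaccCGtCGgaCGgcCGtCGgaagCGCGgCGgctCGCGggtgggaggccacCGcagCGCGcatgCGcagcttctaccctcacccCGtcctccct

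The first Ctnna3 window held 36 CpG, more than 97.4% of the 32851 promoter windows in the table, whose median was 6. Dsp had 22 CpG (more than 85.2% of windows) and Jup had 13 (more than 68.5%). Gja5 with 7 (53.7%) and Gja1 with 6 (49.6%) lay near the median. The windows at the other 2 starts of Ctnna3 held 7 and 1 CpG. The letters TATAAA were in none of the 5 printed windows on either strand and in 12.4% of all windows. GGGCGG, present in 32.7% of all windows, occurred in Dsp at -137, -102, -80 and -45, in Jup at -112 and -42, in Ctnna3 at -139 and in Gja5 at -17, counted from the start to the leftmost base. Gja1 had none of these letters. Instead it held TGANTCA at -19, a pattern that 6.75% of all windows contain. At -135 it held AGATAA, which occurs in 9.99% of all windows. At -23 it held CANNTG, which occurs in 66.2% of all windows and here overlaps the first of these matches. Neither GGAATG, found in 12.6% of all windows, nor the looser pattern TNAAGTG, found in 10.1% of them, occurred in any of the 5 printed sequences. A match to such letters describes the sequence and does not show a bound site.

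Reads in peaks came to 21285387 and 31068085 in knockdown libraries 3 and 4, to 18710132 and 19001373 in control libraries 3 and 4, while the negative control had 3784381. The targeted gene was examined first. Kdm5b's main peak held 40.7 and 46.2 CPM in the knockdown, 46.3 and 43.6 CPM in controls and 21.9 CPM in the negative control (log2 fold change -0.05, limma adjusted p = 0.794). This signal is not the mRNA that a hairpin RNA targets and does not check the knockdown. Of 8 cardiomyocyte markers 7 were measured and stood at 1491 and 1504 CPM in sum in the knockdown, 1581 and 1573 CPM in controls and 1316 CPM in the negative control, and 3 of the 7 were lower in the knockdown libraries. Over the main peaks of all genes limma called 3.40% higher and 1.98% lower. Of 7 epicardial or mesothelial markers 6 were higher, with sums of 470.1 and 466 CPM in the knockdown, 376 and 375 CPM in controls and 734 CPM in the negative control. Of 6 fibroblast markers 4 were higher, with 470.2 and 469 CPM in the knockdown, 402 and 377 CPM in controls and 511 CPM in the negative control. Of 5 smooth muscle or pericyte markers 3 were higher, with 306 and 317 CPM in the knockdown, 264 and 248 CPM in controls and 229.9 CPM in the negative control. None of 5 endothelial and of the 2 measured leukocyte markers passed limma's threshold, and no marker was at 0 in the H3K4 libraries. With TMM 4 epicardial markers were higher, and 0 cardiomyocyte markers were lower and 0 fibroblast or smooth muscle markers higher. Desmosomal genes and Cdh2 are also used outside heart muscle cells, in bulk chromatin fewer cells of a type and less mark per cell cannot be told apart, and the part of these markers in the results below was not tested.

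The first comparison sets the H3K4 signal of the 10 genes beside that of the negative control. The main peaks ran from 1843 bp at Dsc2 to 13710 bp at Gja1, against a median of 1840 bp over the tested main peaks of all genes. Of those, 99.8% were narrower than the peaks of Gja1 and of Pkp2, but 50.02% were narrower than that of Dsc2, 59.6% than that of Gja5 and 68.1% than that of Dsg2. In the knockdown libraries Cdh2, Jup and Gjc1 exceeded the negative control by at least 2-fold, 3 of the 10 main peaks, and in the control libraries Cdh2 and Jup did, 2 of 10. Gja1, Pkp2 and Ctnna3 stood above it by less, Dsp was level with it, and Dsg2, Dsc2 and Gja5 lay below it, in both groups. The means of 6 of 10 were above it in each group, against 43.9% of all genes' main peaks in the knockdown and 43.8% in the control libraries. Over the tested main peaks of all genes 17.8% passed in the knockdown and 14.5% in the control libraries. Of the 6 genes with at least 100 CPM (Gja1, Gjc1, Cdh2, Dsp, Pkp2 and Jup) 3 passed in the knockdown and 2 in the control libraries, where 70.8% and 64.6% of all tested peaks of that height passed. CPM sums to the same total in every library. Narrow background peaks (under 500 bp wide and lower in H3K4 than in the negative control) took 5.62% and 3.64% of all reads in the knockdown libraries, 6.65% and 5.79% in the control libraries and 21.9% in the negative control. When the libraries were scaled on those narrow peaks, 9 of the 10 main peaks in the control libraries passed 2-fold, as did 53.4% of all genes' main peaks. Those narrow peaks were chosen as lower in H3K4 than in the negative control, so scaling on them can only raise the ratios. The direction of this rise was fixed by that choice. With 1 negative control library these ratios have no test.

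**Figure D1:**
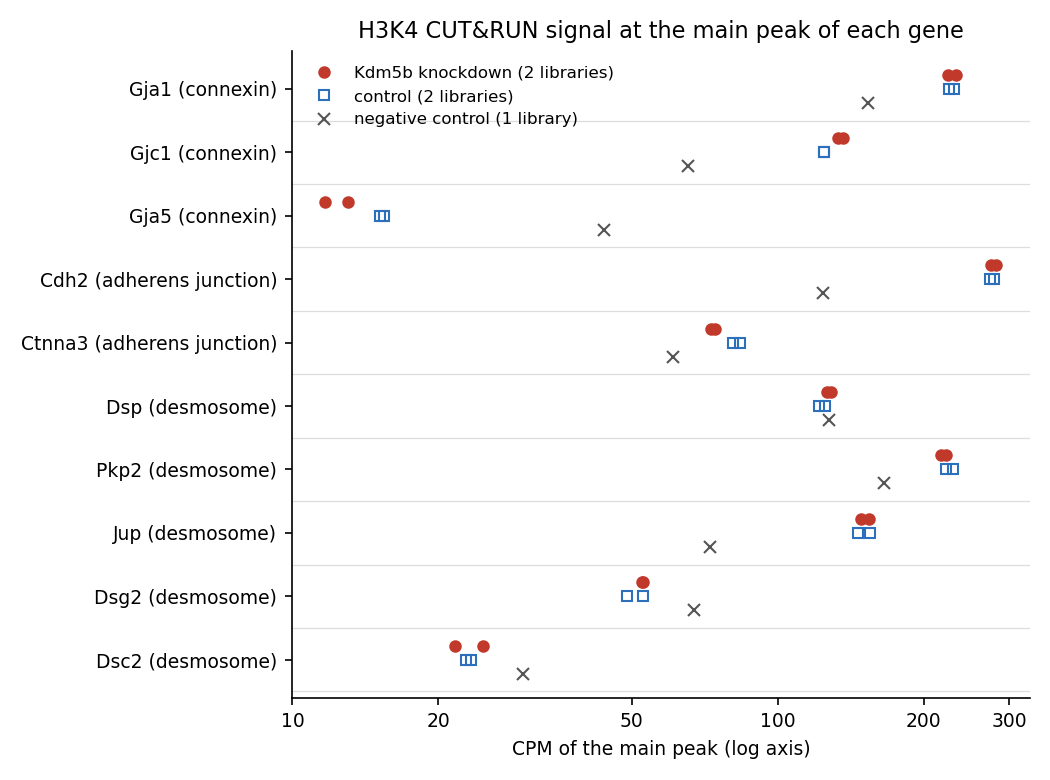
CPM of the main peak of each gene (log axis), with filled circles for the 2 Kdm5b knockdown libraries, open squares for the 2 control libraries and a cross for the negative control. Cdh2, at 275 and 282 CPM in the knockdown libraries, stands furthest right and well clear of its cross at 124 CPM, whereas the points of Gja5 lie left of their cross at 43.9 CPM.

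Levels of different genes were compared per kilobase of peak. In the knockdown libraries the order ran from Cdh2 (25.7 ± 0.488 CPM per kb, SD, n = 2) and Jup (24.2 ± 0.625) through Dsp (23.7 ± 0.327), Gjc1 (19.8 ± 0.310), Dsg2 (18.8 ± 0.0254), Gja1 (16.7 ± 0.435), Pkp2 (16.3 ± 0.269) and Ctnna3 (13.2 ± 0.159) to Dsc2 (12.6 ± 1.17) and Gja5 (5.31 ± 0.406). There the neighbours Jup and Dsp, Gja1 and Pkp2, and Ctnna3 and Dsc2 overlapped between libraries. In the control libraries Cdh2 (25.5 ± 0.344 CPM per kb), Jup (24.1 ± 0.983) and Dsp (23.0 ± 0.446) again led, followed by Gjc1 (18.3 ± 0.00390), Dsg2 (18.2 ± 0.994), Pkp2 (16.8 ± 0.415), Gja1 (16.7 ± 0.278), Ctnna3 (14.8 ± 0.338), Dsc2 (12.5 ± 0.177) and Gja5 (6.58 ± 0.0891). Of these neighbours, Gjc1 and Dsg2 overlapped, as did Pkp2 and Gja1. The negative control had its own order, with 24.0 CPM per kb at Dsg2, 23.8 at Dsp, 18.8 at Gja5 and 11.5 at Cdh2.

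The second question is whether the knockdown changed the mark at these genes. Limma's test called 0 of the 10 main peaks higher and 0 lower after Benjamini-Hochberg adjustment over all 58072 tested peaks, of which 1.33% were higher and 1.63% lower. Unadjusted, 3 of the 10 had a p under 0.05 (Ctnna3, Gja5 and Gjc1), as had 9653 of all tested peaks. On the recovered reads edgeR and DESeq2 also called 0 of the 10, but DESeq2 gave no adjusted p for 39406 of the tested peaks. Other alternatives did call some of the 10 lower. Cyclic loess normalization called Cdh2, Pkp2 and Ctnna3, while quantile normalization and a block for the column number called Ctnna3. Of the tested main peaks of all genes 3.40% were called higher and 1.98% lower, so a count of 0 among 10 does not set these genes apart. Among all tested peaks of at least 100 CPM 12.5% were higher and 2.19% lower, and 0 of the 6 genes of that height were. The median log2 fold change of the 10 was 0.0051, against -0.01 for the main peaks of all genes. It was 0.0090 for the 6 highest, against 0.07 for all tested peaks of that height.

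Among the connexins, Gja1 is the main gap junction gene of the ventricular muscle. Its main peak (chromosome 10, 56251959 to 56265669, GRCm39) held 233 and 225 CPM in the knockdown, 231 and 226 CPM in controls and 153 CPM in the negative control. The groups overlapped, and both stood about equally far above the negative control, 1.49-fold on the log2(CPM + 1) scale. The log2 fold change of knockdown over control was 0.00 (SE 0.04, limma adjusted p = 0.984), and the 95% interval of the fold ran from 0.946 to 1.06. Its single other peak, 376 bp wide and 2.17 kb away, had 3.10 and 2.38 CPM in the knockdown, 2.94 and 2.63 CPM in controls and 6.34 CPM in the negative control.

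Gjc1, a connexin of the early heart and of the conduction system, had the largest positive estimate. Its main peak (chromosome 11, 102704156 to 102710978) held 136 and 133 CPM in the knockdown, 124.58 and 124.62 CPM in controls and 65.3 CPM in the negative control. Both knockdown libraries lay above both control libraries, as they did at 25.6% of all genes' main peaks. The fold was 1.08 (95% interval 1.01 to 1.16, not adjusted for the number of peaks), and the limma adjusted p was 0.250. Over the negative control it came to 2.05-fold in the knockdown and 1.90-fold in the control libraries.

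Gja5, a connexin of the atria and the fast conduction system, carried the least signal. At its main peak (chromosome 3, 96939432 to 96941761) 11.7 and 13.0 CPM were found in the knockdown, 15.2 and 15.5 CPM in controls and 43.9 CPM in the negative control (95% counting interval 37.4 to 51.1 CPM). Both knockdown libraries lay below both control libraries, as at 25.9% of all genes' main peaks, and all 4 lay below the negative control, at 0.298 of it in the knockdown and 0.364 in the control libraries. Its log2 fold change came to -0.29 (SE 0.12, limma adjusted p = 0.196), with a 95% interval of the fold from 0.692 to 0.966. Intervals on reads cover counting error only. Of the tested main peaks of all genes 12.9% had a lower ratio of control libraries to negative control.

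Cdh2 encodes N-cadherin, the cadherin that holds heart muscle cells together. Its main peak (chromosome 18, 16933790 to 16944634) had the most signal of the 10 genes, in total and per kilobase. It held 275 and 282 CPM in the knockdown, 274 and 279 CPM in controls and 124 CPM in the negative control. The groups overlapped, and the fold of knockdown over control was 1.01 (95% interval 0.955 to 1.06, limma adjusted p = 0.929).

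Ctnna3 encodes an alpha-catenin of the heart and links cadherin complexes to actin. The main peak (chromosome 10, 63291617 to 63297171) held 72.9 and 74.2 CPM in the knockdown, 81.0 and 83.6 CPM in controls and 60.8 CPM in the negative control. Both knockdown libraries were lower than both control libraries, as at 25.9% of all genes' main peaks. Its log2 fold change came to -0.16 (SE 0.06, limma adjusted p = 0.153), a fold of 0.895 with a 95% interval from 0.822 to 0.975 before adjustment. It passed the threshold with quantile normalization (adjusted p = 0.0051) and with cyclic loess (0.0107), and its estimate was 0.08 after median centring and 0.29 when scaled on narrow background peaks.

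In the desmosomal plaque, Dsp encodes desmoplakin, which binds the intermediate filaments. Its main peak (chromosome 13, 38334391 to 38339765) held 126 and 129 CPM in the knockdown, 125 and 122 CPM in controls and 128 CPM in the negative control. Both knockdown libraries were higher than both control libraries, as at 25.6% of all genes' main peaks, but none of the 4 stood clear of the negative control (counting interval 117 to 139.8 CPM). The fold was 1.03 (95% interval 0.961 to 1.11, limma adjusted p = 0.693).

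Pkp2, the plakophilin of the heart, had a main peak of 13454 bp (chromosome 16, 16030603 to 16044057). It held 222 and 217 CPM in the knockdown, 230.4 and 222.5 CPM in controls and 166 CPM in the negative control. The knockdown values lay just below the control values, as at 25.9% of all genes' main peaks. The fold was 0.970 (95% interval 0.915 to 1.03, limma adjusted p = 0.631). With cyclic loess the log2 fold change was -0.16 and passed the threshold (adjusted p = 0.0023).

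Jup encodes plakoglobin, which serves both desmosomes and adherens junctions. At its main peak (chromosome 11, 100283011 to 100289263) 154 and 149 CPM were found in the knockdown, 155 and 147 CPM in controls and 72.4 CPM in the negative control. The groups overlapped, and the log2 fold change was 0.01 (95% interval of the fold 0.940 to 1.07, limma adjusted p = 0.966). A peak of P3h4 12.6 kb away held 189.8 and 191 CPM in the knockdown, 171 and 175 CPM in controls and 70.0 CPM in the negative control (limma adjusted p = 0.063).

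The desmosomal cadherin genes Dsg2 and Dsc2 lie on chromosome 18 with 498 kb between their main peaks. Dsg2 (20690405 to 20693204) held 52.8 and 52.7 CPM in the knockdown, 49.0 and 52.9 CPM in controls and 67.1 CPM in the negative control. The groups overlapped, and the fold was 1.04 (95% interval 0.937 to 1.14, limma adjusted p = 0.779). At Dsc2 (20191031 to 20192874) there were 21.6 and 24.7 CPM in the knockdown, 23.3 and 22.8 CPM in controls and 29.9 CPM in the negative control. Again the groups overlapped, with a log2 fold change of 0.00 (95% interval of the fold 0.874 to 1.15, limma adjusted p = 0.998). Both genes stood at about the same ratio to the negative control, 0.788 and 0.780 in the knockdown and 0.762 and 0.780 in the control libraries.

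**Figure D2:**
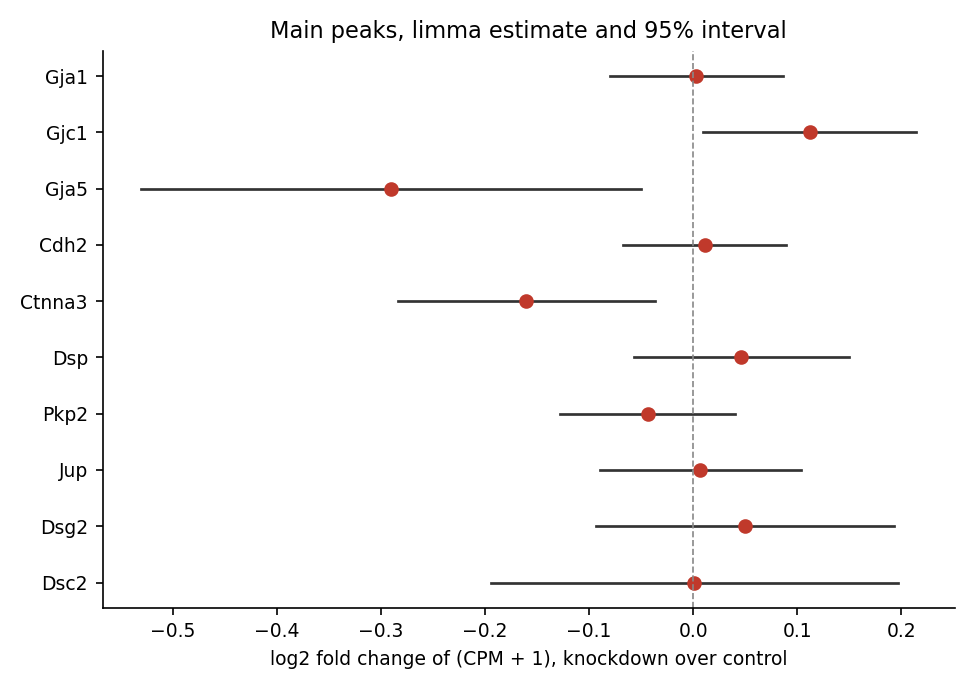
Log2 fold change of CPM + 1, knockdown over control, at the main peak of each gene, with the 95% interval of limma's fit before adjustment. The intervals of Gjc1, Gja5 and Ctnna3 leave out 0, those of the other 7 genes hold it, and none of the 10 passed after adjustment.

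All 62 other tested peaks lay below the negative control in the mean of both groups on the CPM scale. When the libraries were scaled on narrow background peaks, 17 lay below it in the knockdown and 14 in the control libraries. Of the other peaks of all genes 30.3% and 29.4% did. This position thus depends on the scaling. However, 28 of the 62 were under 500 bp wide and were themselves among the peaks used for that scaling. Scaling on them cannot show on which side of the negative control they stand. In CPM, 56 of the 62 (90.3%) in the knockdown libraries were at least 2-fold below it and in the control libraries 44 (71.0%), against 89.4% and 75.7% of the other peaks of all genes. The knockdown estimate was negative at 55 of the 62 (88.7%), with a median log2 fold change of -0.31, against 79.9% and -0.23 over the other peaks of all genes. Cdh2 alone gave 31 of the 62 peaks and 26 of the 55 negative estimates. These signs hold for CPM as deposited. The median over all tested peaks was -0.14 in CPM, 0.10 after median centring and 0.17 when scaled on narrow background peaks. At 36 of the 62 (58.1%) both knockdown libraries lay below both control libraries, and at 0 did they lie above. The other peaks of all genes had 41.2% and 3.98%. Cdh2 alone gave 20 of the 36. Some of the 36 reached 1 CPM in the 2 control libraries only, among them Dsc2's other peak and peaks of Ctnna3 and Cdh2. At those the filter itself fixed the order of the groups, so they are no evidence of a change. The same filter was applied to the other peaks of all genes. Limma called 2 lower and 0 higher, against 1.42% and 0.0828% of the other peaks of all genes. All peaks of a library share its scaling, so these counts are not independent of each other. With TMM, quantile normalization, cyclic loess, median centring or scaling on narrow background peaks neither of the 2 passed.

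The first of these 2 peaks belongs to Gjc1 (chromosome 11, 102682132 to 102683408) and is 20.7 kb from its main peak. It held 2.91 and 3.99 CPM in the knockdown, 6.84 and 5.84 CPM in controls and 10.3 CPM in the negative control, a log2 fold change of -0.73 with a standard error of 0.19 (adjusted p = 0.00955 by limma). The call was lost without knockdown library 3 (adjusted p = 0.181) and without control library 3 (0.290). All 8 other tested peaks of Gjc1 had a negative estimate, whereas the main peak had a positive one. The 8 had means of 1 to under 5 CPM, and at that height 80.6% of the other peaks of all genes were negative. Of all tested peaks of at least 100 CPM, 76.0% were positive. This contrast thus does not set Gjc1 apart. The sum of Gjc1's 8 other peaks was 15.9 and 12.3 CPM in the knockdown, 25.3 and 20.7 CPM in controls and 63.7 CPM in the negative control.

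The second belongs to Ctnna3 (chromosome 10, 63315941 to 63316991) and is 18.8 kb from the main peak. It held 3.85 and 3.86 CPM in the knockdown, 6.73 and 6.42 CPM in controls and 13.5 CPM in the negative control (log2 fold change -0.64, SE 0.18, limma adjusted p = 0.024). The call was lost on leaving out any 1 of the 4 libraries, with adjusted p = 0.107 without knockdown library 3, 0.222 without knockdown library 4, 0.275 without control library 3 and 0.129 without control library 4. Ctnna3 had 9 other tested peaks, up to 493 kb from the main peak. The one 425 kb away (1398 bp) held 9.68 and 6.92 CPM in the knockdown, 9.19 and 8.37 CPM in controls and 11.1 CPM in the negative control. At 0.808 of the negative control in the control libraries, its ratio was the highest of the 62.

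Cdh2 had the most peaks, 41, of which 32 were tested. Its 31 other tested peaks lay 0.627 to 193 kb from the main peak, and 26 had a negative estimate, against 79.9% of the other peaks of all genes. The highest, 5482 bp wide and 57.7 kb away (chromosome 18, 16870571 to 16876053), held 24.1 and 18.8 CPM in the knockdown, 26.6 and 26.5 CPM in controls and 58.9 CPM in the negative control (log2 fold change -0.30, limma adjusted p = 0.063). Another, 3358 bp wide and 54.3 kb away, held 15.2 and 16.8 CPM in the knockdown, 18.8 and 21.4 CPM in controls and 37.0 CPM in the negative control. Summed over the 31 there were 108 and 86.7 CPM in the knockdown, 126 and 123 CPM in controls and 300.2 CPM in the negative control. The groups did not overlap in this sum. However, both knockdown libraries lay below both control libraries at 41.2% of the other peaks of all genes. The median log2 fold change over the other peaks of all genes was -0.23. Whether the sum of Cdh2, or the share of its main peak given next, goes beyond this general shift in CPM was not tested. The main peak accounted for 71.7% and 76.5% of the gene's tested signal in the knockdown and 68.4% and 69.3% in the control libraries, against 29.3% in the negative control.

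**Figure D3:**
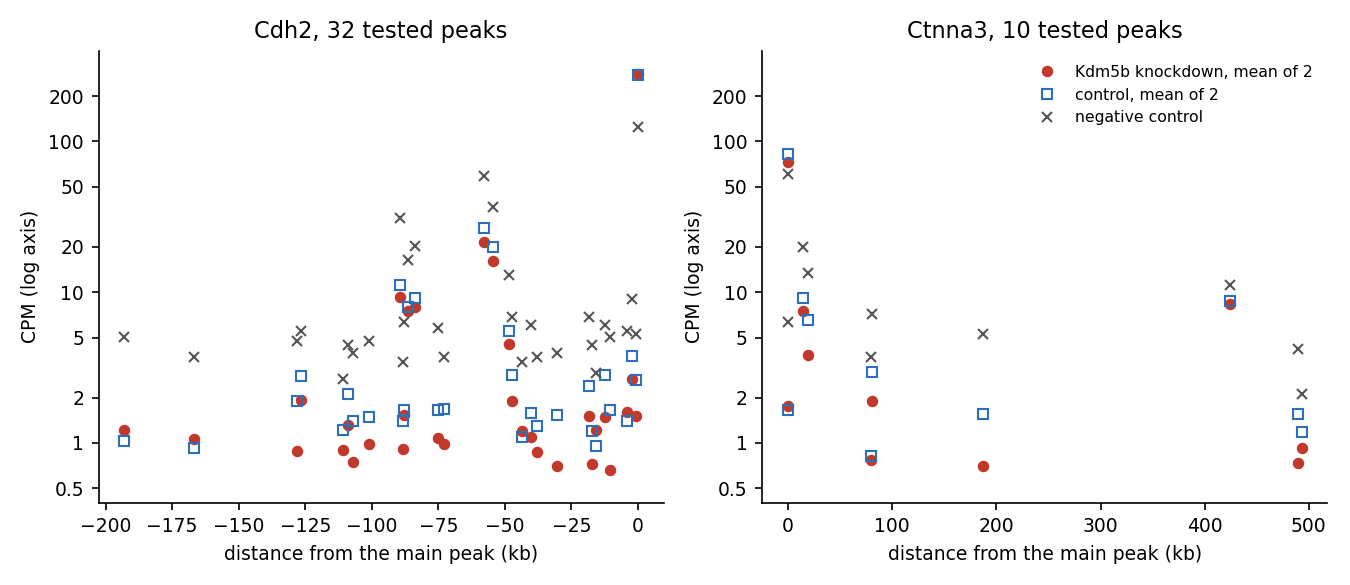
Mean CPM (log axis) of every tested peak of Cdh2 (32 peaks) and Ctnna3 (10 peaks) against its distance in kb from the main peak at 0, negative towards lower coordinates. Filled circles are the knockdown mean and open squares the control mean of 2 libraries, and crosses are the negative control, which lies above the H3K4 libraries everywhere except at the main peaks.

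Other genes had fewer peaks. Jup's next peak, 4394 bp wide and 0.310 kb from the main one, held 19.1 and 19.5 CPM in the knockdown, 22.7 and 24.1 CPM in controls and 38.8 CPM in the negative control (limma adjusted p = 0.152). Pkp2's next peak, 1968 bp wide and 1.15 kb away, held 7.0001 and 5.34 CPM in the knockdown, 8.93 and 7.63 CPM in controls and 19.8 CPM in the negative control (adjusted p = 0.197). At both the knockdown libraries were the lower ones, as at 41.2% of the other peaks of all genes. The 5 other tested peaks of Dsp summed to 15.5 and 16.1 CPM in the knockdown, 19.1 and 16.9 CPM in controls and 52.8 CPM in the negative control. Dsg2 had no other tested peak, and Dsc2 had 1, at 0.752 and 0.612 CPM in the knockdown, 1.92 and 1.32 CPM in controls and 5.28 CPM in the negative control. The 28 peaks that did not reach the filter belonged to Ctnna3 (11), Cdh2 (9), Jup (4), Dsg2 (2), Gja5 (1) and Dsc2 (1).

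**Figure D4:**
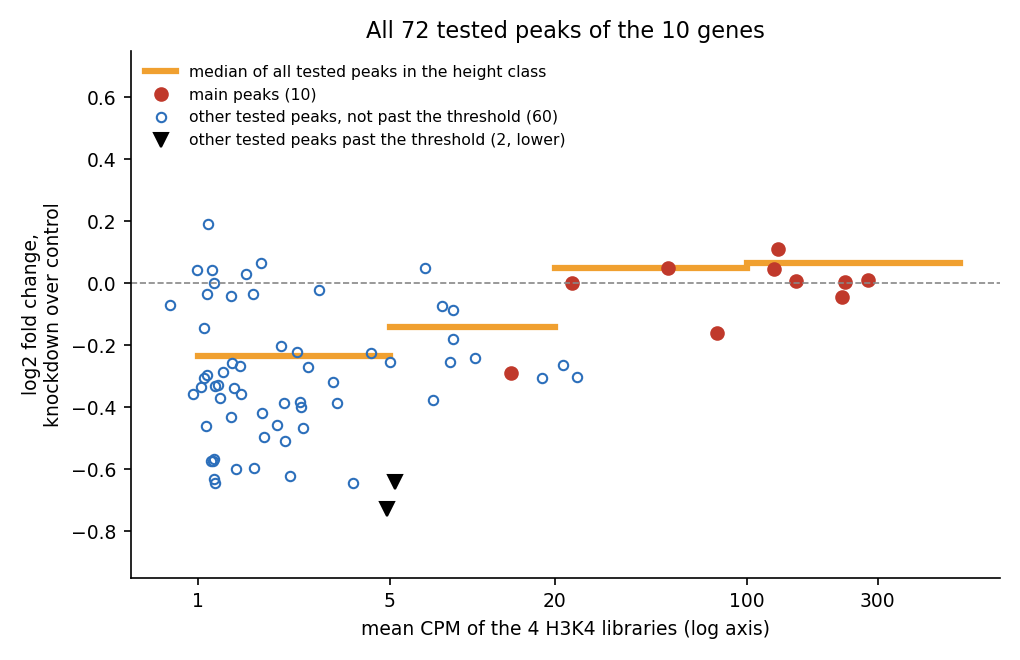
Log2 fold change of knockdown over control against the mean CPM of the 4 H3K4 libraries (log axis) for the 72 tested peaks. Filled circles are the 10 main peaks, open circles the 60 other peaks that did not pass and triangles the 2 that did, and orange bars mark the median of all tested peaks by height, which is -0.23 in the lowest class and 0.07 in the highest.

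The sign of the small estimates depended on the scaling of the libraries. The median over all tested peaks was -0.14 as deposited, -0.07 with TMM, 0.00 with quantile normalization, 0.01 with cyclic loess, 0.10 after median centring and 0.17 when scaled on narrow background peaks. Tested peaks of at least 100 CPM had medians of 0.07, 0.17, 0.01, -0.02, 0.31 and 0.52 in the same order. Gja1 had estimates of 0.00, 0.11, -0.05, -0.11, 0.24 and 0.46, and Cdh2 had 0.01, 0.12, -0.03, -0.11, 0.25 and 0.47. Gjc1 was positive under all 19 alternatives run, between 0.03 and 0.56, and was called in 0. Gja5 was negative in all but 1 of them, at 0.14 with scaling on narrow background peaks, and was called in 0. Dsc2 was positive under each of these 6 scalings, between 0.00 and 0.44, and the other 7 genes had estimates of both signs.

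**Figure D5:**
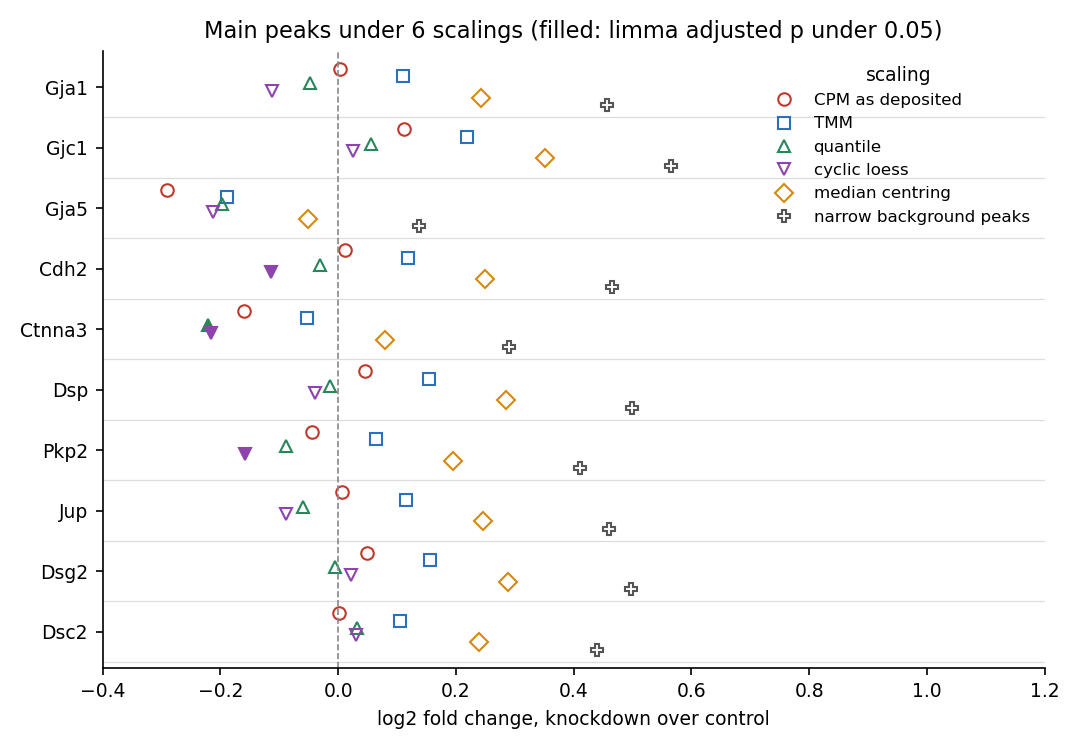
Log2 fold change of knockdown over control at the main peaks under 6 scalings of the libraries, with filled symbols where limma's adjusted p was under 0.05. Filled symbols stand at Cdh2 and Pkp2 with cyclic loess (-0.11 and -0.16) and at Ctnna3 with quantile normalization and cyclic loess (both -0.22).

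Other genes of the same structures were taken from lists chosen with earlier results of these data known, again by their main peaks. Over the main peaks of all genes 3.40% were higher and 1.98% lower. All 7 other connexins with a peak were tested, and 0 were higher and 0 lower, with a median log2 fold change of -0.21. Their means over the 4 H3K4 libraries ran from 4.52 to 46.1 CPM. Over all tested peaks the median was -0.23 at 1 to under 5 CPM, -0.14 at 5 to under 20 CPM and 0.05 at 20 to under 100 CPM. Gja3 had 43.5 and 47.4 CPM in the knockdown, 46.2 and 47.4 CPM in controls and 55.0 CPM in the negative control, and the groups overlapped. Gja4, a connexin of vessels, had 32.7 and 33.2 CPM in the knockdown, 32.9 and 26.3 CPM in controls and 75.05 CPM in the negative control. Of the 5 tested of 10 other desmosomal genes, 0 were higher and 0 lower (median -0.03). Pkp4 had 95.5 and 101 CPM in the knockdown, 95.8 and 105 CPM in controls and 47.8 CPM in the negative control. Perp had 72.1 and 75.2 CPM in the knockdown, 75.6 and 76.7 CPM in controls and 62.4 CPM in the negative control. The skin desmosomal cadherin genes Dsg1a, Dsg3, Dsg4, Dsc1 and Dsc3 did not pass the filter. Dsg1c did, with 1.64 and 1.29 CPM in the knockdown, 1.07 and 1.05 CPM in controls and 6.08 CPM in the negative control.

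Of 15 other adherens junction genes 3 were higher and 1 lower (median 0.05), against 3.40% higher and 1.98% lower over all genes' main peaks. The 3 higher ones each had a mean above 100 CPM. Of all tested peaks of at least 100 CPM, 12.5% were higher and 2.19% lower, so 3.40% understates the background for these 3. Ctnnd1, which encodes the p120-type catenin that stabilises cadherins, rose to 178 and 185 CPM in the knockdown, against 148 and 145 CPM in controls and 66.1 CPM in the negative control (log2 fold change 0.31, limma adjusted p = 3.78e-07). Cdh11, a cadherin of mesenchymal cells, rose to 179 and 184 CPM in the knockdown, against 156 and 139 CPM in controls and 126 CPM in the negative control (0.30, adjusted p = 7.37e-07). Vcl, the vinculin gene, rose to 225 and 227 CPM in the knockdown, against 198 and 200.1 CPM in controls and 130.0 CPM in the negative control (0.18, adjusted p = 0.00393). Cdh4 fell to 22.2 and 23.1 CPM in the knockdown, against 27.3 and 33.3 CPM in controls and 53.9 CPM in the negative control (-0.40, adjusted p = 0.00403). At these 4 the groups did not overlap, which adds nothing to the calls, since the 4 were named for passing on the same libraries. Over all genes' main peaks the knockdown lay above both control libraries at 25.6% and below both at 25.9%. Vcl's call was lost without knockdown library 4 (adjusted p = 0.121), control library 3 (0.129) or control library 4 (0.061), and Cdh4's without knockdown library 3 (0.087) or control library 4 (0.291).

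Of 20 other intercalated disc genes 0 were higher and 3 lower (median -0.05), against 3.40% higher and 1.98% lower over all genes' main peaks. Xirp1, an actin-binding protein gene of the disc, fell to 103.7 and 103.8 CPM in the knockdown, against 123 and 126 CPM in controls and 84.8 CPM in the negative control (log2 fold change -0.26, limma adjusted p = 0.000591). Csrp3, the muscle LIM protein gene, fell to 89.9 and 90.03 CPM in the knockdown, against 110.1 and 105 CPM in controls and 94.9 CPM in the negative control (-0.26, adjusted p = 0.0016). Popdc2 fell to 203 and 202 CPM in the knockdown, against 218 and 236 CPM in controls and 169.6 CPM in the negative control (-0.16, adjusted p = 0.0145). Csrp3's call was lost without control library 3 (adjusted p = 0.139), and Popdc2's without knockdown library 3 (0.0695), knockdown library 4 (0.204) or control library 4 (0.432). In the same libraries 3 of 7 cardiomyocyte markers were lower, and 6 of 7 epicardial, 4 of 6 fibroblast and 3 of 5 smooth muscle markers were higher. With TMM, median centring, scaling on narrow background peaks, limma without a trend, edgeR with TMM and DESeq2 0 genes of these 4 lists passed, and on narrow background peaks the estimates of Xirp1, Csrp3, Popdc2 and Cdh4 were positive, as was that of Popdc2 with median centring and DESeq2.

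The genes most like 3 of the members were sought among the main peaks of 14508 named genes, by the distance of their log2(CPM + 1) values over the 5 libraries. For Gja1 they were Dusp4 (distance 0.18) and Setd5 (0.27), for Gja5 Mir1292 and Igfbp2 (0.14 each), and for Dsp Runx1 (0.12) and Vgll3 (0.18). Dusp4 had 238 and 251 CPM in the knockdown, 237 and 238 CPM in controls and 154 CPM in the negative control. Runx1 had 132 and 132 CPM in the knockdown, 122 and 130.3 CPM in controls and, like Dsp, 128 CPM in the negative control.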

How the data were processed

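CUT&RUN was carried out on 5 libraries, and the deposited table gives the authors' peaks in GRCm39 with a gene symbol and a CPM value per library, normalized by the authors to reads in peaks. Trim Galore is named in the submitters' processing notes. Aligner, peak caller, read counting and gene assignment are not given in the sources used here. There were 0 unused sample columns, and 2 table lines were emptied for this work. CPM values were whole multiples of 1 read in 100% of cells (tolerance 1e-06 reads), which gave the depths. With log2(CPM + 1), peaks with at least 1 CPM in 2 of the 4 H3K4 libraries were tested by limma 3.58.1 (R 4.3.3, intensity trend, Benjamini-Hochberg over 58072 peaks, threshold 0.05) between 2 knockdown and 2 control libraries. The negative control entered no test. Intervals on reads are exact Poisson intervals at 95% and cover counting error only. The scripts were tested on simulated data.

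All 10 members were described whatever their values. From each of the 4 lists of other junction and disc genes the genes that passed were named, and where none did the 2 with the highest mean CPM. Cell type markers are given by counts and sums. Limma's prior degrees of freedom were infinite, so its spread came from the trend over all peaks. The members and lists were chosen with earlier results of these data known. Alternatives were pseudocounts of 0.5 and 5 CPM, no filter and a filter of 5 CPM, 5 other scalings, limma without a trend, a replicate block, edgeR 4.0.16 and DESeq2 1.42.0 on the recovered reads, a threshold of 0.01, and leaving out each library. Tables used Python 3.11.15 and pandas 2.3.3.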

Additional observations from a re-analysis of the deposited data

How the results depend on the processing

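Reversed means that the sign changed and that the main or the alternative value passed the threshold. Over all tested peaks limma called 773 higher and 947 lower. The counts were 55 and 34 with TMM, 28 and 3 with median centring, 0 and 0 when scaled on narrow background peaks, 0 and 0 without a trend, 51 and 38 with edgeR and TMM, 35 and 3 with DESeq2, and 351 and 355 at a threshold of 0.01. Leaving out 1 library gave 155 to 371 higher and 185 to 476 lower. The numbers 3 and 4 in the columns are not said to mark a shared culture or day, so the samples share only a number, and the correlation of their deviations was 0.12. With the replicate block the counts were 1578 higher and 2275 lower. Of the 10 main peaks 0 were lower in the main analysis, 1 with quantile normalization, 3 with cyclic loess, 1 with the replicate block (Ctnna3, adjusted p = 0.0488), and 2 when all 72 peaks of the members were counted. Main peaks exceeding the negative control 2-fold numbered 2, against 0 at 3-fold, 9 with scaling on narrow background peaks, and 2 to 2 with each control library alone. Of the 62 other peaks, those below the negative control numbered 17 in the knockdown and 14 in the control libraries on narrow-peak scaling (an alternative chosen after seeing the data), against 62 in both in CPM. That scaling rests on peaks chosen as lower in H3K4, so it lowers the negative control by construction. Reversed estimates were Cdh2 at -0.11 with cyclic loess, Popdc2 at 0.078 with median centring, 0.29 on narrow-peak scaling and 0.052 with DESeq2, and, on narrow-peak scaling, Cdh4 at 0.044, Xirp1 at 0.19 and Csrp3 at 0.19. The cause was not tested. The negative control is 1 library of 3784381 reads, where 3 reads are 0.793 CPM.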
